A study of Mus musculus with 6 samples.

Results

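Complex I, the NADH dehydrogenase of the mitochondrial inner membrane, was examined here through the mRNAs of its nuclear genes in mouse tibialis anterior (TA) muscle. The genes were taken as all symbols of the deposited table that begin with Nduf, leaving out pseudogenes, which gave 48 of 41709 genes. Of these, 37 encode subunits of the complex, 8 are assembly factors named Ndufaf, *Ndufa4* and *Ndufa4l2* lie outside complex I, and *Ndufb11b* is a further gene of this name that was listed at 0 in all 6 libraries. The other 47 passed a filter on the mean TPM (transcript abundance, corrected for transcript length, as a share of a fixed total) of at least 1 and made up the genes tested here.

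The 6 libraries came from TA muscles electroporated with a pCMV6 plasmid for Flag-tagged mouse Lrpprc, either wild-type (LrpprcWT, the control, n = 3) or with proline 27 replaced by alanine (LrpprcP27A, n = 3), a change that prevents dihydroxylation of this residue. The TA was taken 14 days later, and each mouse received LrpprcWT in one TA and LrpprcP27A in the other. The study used male C57BL/6J mice of 4 and 27 months, and the age of those sequenced is not given in the sources used here. Both groups therefore carried extra Lrpprc, a muscle without plasmid was not analysed here, and the whole TA was sequenced, with fibres that took up the plasmid and fibres that did not.

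Complex I passes electrons from NADH to ubiquinone and pumps protons across the inner membrane. A peripheral arm in the matrix holds the NADH site, the iron-sulphur clusters and the ubiquinone site, and a membrane arm holds the proton channels. Core subunits of the peripheral arm and all accessory subunits are made from nuclear genes, whereas the core subunits of the membrane arm are made from the mitochondrial genes *mt-Nd1* to *mt-Nd6* and *mt-Nd4l*. Assembly factors join the arms and leave the finished complex. Lrpprc itself is an RNA-binding protein known for stabilizing mitochondrial mRNAs, and the question addressed here is whether the mRNAs of complex I differ between muscles with the variant and with the wild-type protein.

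Promoters of the genes with the lowest and the highest fold changes are shown first, to set their sequences beside the values given further on. RefSeq promoter windows (GRCm38.p6, 250 bases before to 50 after each gene start) matched 41 of the 48 genes. At each end the 2 most extreme genes with a window were taken, *Ndufaf1* and *Ndufb3* at the low end and *Ndufb5* and *Ndufb4* at the high end. Each sequence runs 5′ to 3′ towards the gene on its own strand, was matched to GRCm39, and stops where the GENCODE M39 gene begins. Capitals mark a CCAAT box (CCAAT or its reverse complement ATTGG) or, in *Ndufb4*, the letters GCGCACGCGC that match the motif of the transcription factor NRF1.
Ndufaf1, chr2:119493360-119493565, minus strand: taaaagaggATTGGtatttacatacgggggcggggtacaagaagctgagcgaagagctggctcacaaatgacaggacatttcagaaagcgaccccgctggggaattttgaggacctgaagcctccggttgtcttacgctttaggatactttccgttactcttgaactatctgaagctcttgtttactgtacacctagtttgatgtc
Ndufb3, chr1:58625306-58625540, plus strand: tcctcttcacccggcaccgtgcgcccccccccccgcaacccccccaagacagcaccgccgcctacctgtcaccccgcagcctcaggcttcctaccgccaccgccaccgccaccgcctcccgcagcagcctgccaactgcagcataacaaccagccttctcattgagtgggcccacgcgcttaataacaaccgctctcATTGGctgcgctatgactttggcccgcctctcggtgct
Ndufb5, chr3:32790962-32791138, plus strand: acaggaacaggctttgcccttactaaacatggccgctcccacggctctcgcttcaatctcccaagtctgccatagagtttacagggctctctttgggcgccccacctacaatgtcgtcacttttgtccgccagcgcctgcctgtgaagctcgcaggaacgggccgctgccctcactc
Ndufb4, chr16:37474816-37474980, minus strand: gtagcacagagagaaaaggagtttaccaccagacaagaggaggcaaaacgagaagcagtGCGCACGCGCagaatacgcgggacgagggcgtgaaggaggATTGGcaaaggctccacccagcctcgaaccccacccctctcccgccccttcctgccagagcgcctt

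Motifs of 5 factors were searched on both strands in the whole windows. The NRF1 motif, GCGCA and GCGC parted by a single base of any kind, was found in 9 of the 41 Nduf windows (22.0%) and in 4.78% of the 27025 windows of all genes. AAGATGGC, the motif of YY1, was found in 8 of the 41 (19.5%) and in 2.88% of all windows. The ETS motif CCGGAAG was found in 6 (14.6%, against 9.12%), the motif AAGGTCA of the estrogen-related receptors in 3 (7.32%, against 4.66%) and CCAAT in 14 (34.1%, against 37.9%). Of the 5 genes with a window that passed the test for a lower level, none held the NRF1 or the YY1 motif, 2 held the ETS motif and 2 the CCAAT box. *Ndufb4* held the NRF1 motif at 3 places in its window, of which 2 lie in the bases not printed, the ETS motif of *Ndufaf1* lies there too, and *Ndufb5* held none of the 5 motifs before its start. A match describes letters in a window and is not evidence of binding, and these counts were not tested.

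Nearly all subunit genes were abundant in TA muscle. The levels are compared as TPM, which corrects for transcript length. *Ndufb9*, an accessory subunit of the distal membrane arm that binds the acyl carrier subunit, had the highest level. Its TPM was 649.7, 669 and 756 with LrpprcWT (replicates 1 to 3) and 656, 662.3 and 627.5 with LrpprcP27A. The groups overlapped through LrpprcWT replicate 1, and LrpprcWT replicate 3 stood above the rest. Among the other abundant genes were *Ndufa4* (mean of the 6 libraries 450.8 TPM) and *Ndufa13* (414.3), and 32 of the 47 genes had a mean above 100 TPM. *Ndufa13*, *Ndufb11*, *Ndufa8* and *Ndufa2*, with means between 400.9 and 414.3 TPM, did not differ beyond their spread over libraries. The lowest subunit was *Ndufb2*, with a mean of 32.0 TPM, 20.9-fold below *Ndufb9*. The assembly factors ran from *Ndufaf1* (58.3 TPM), among the lower subunits, to *Ndufaf2*, which had the lowest level of the 47 genes (4.79 TPM). *Ndufaf2*, a factor that acts late and leaves as *Ndufa12* joins, had 4.77, 5.28 and 6.19 TPM with LrpprcWT and 4.18, 4.09 and 4.22 TPM with LrpprcP27A, so that the groups did not overlap (log2 fold change -0.31 ± 0.14 SE, limma adjusted p = 0.111). Across the 47 genes, the Spearman correlation of level and log2 fold change was 0.20, a description over genes that share their libraries.

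**Figure D1:**
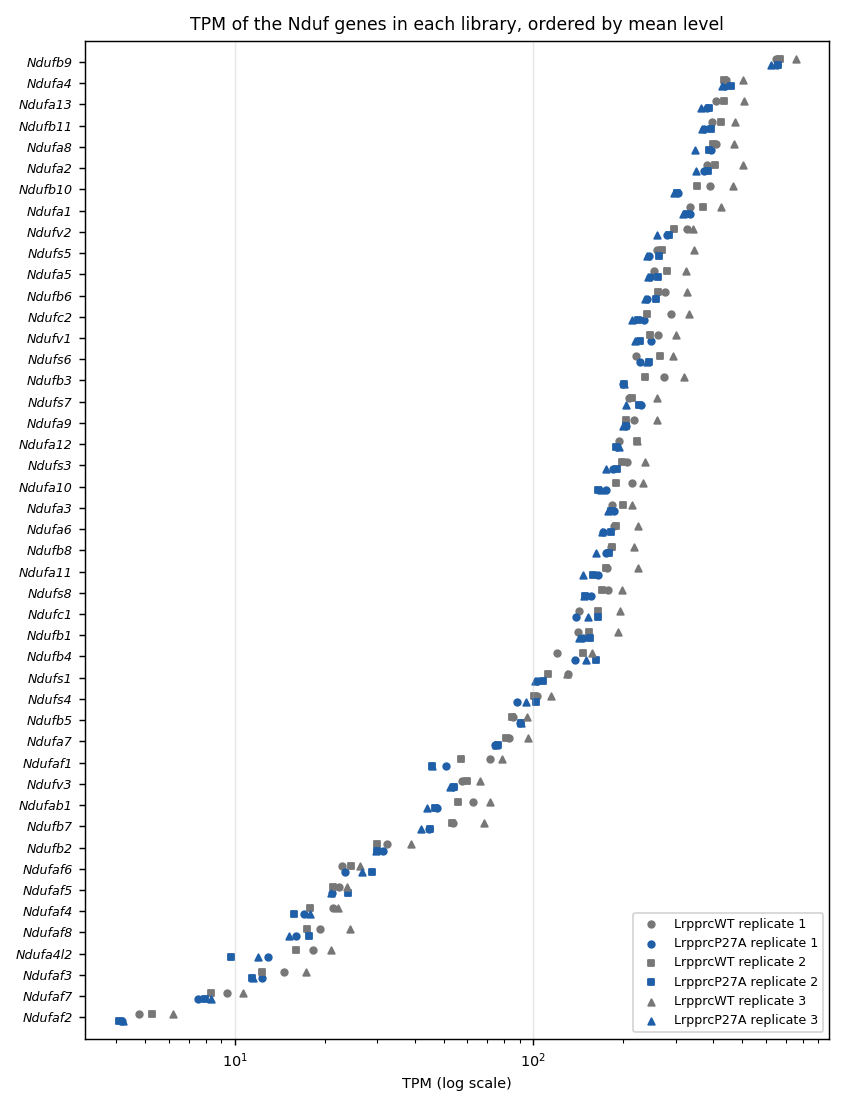
TPM (log scale) of 46 Nduf genes in each of the 6 libraries, ordered by the mean; grey is LrpprcWT, blue is LrpprcP27A and the symbol gives the replicate number. *Ndufb9* is at the top and *Ndufaf2* at the bottom, and the grey triangle of LrpprcWT replicate 3 is the highest point in 41 of these 46 genes.

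A single library was at the top for most genes. LrpprcWT replicate 3 had the highest value of the 6 libraries in 42 of the 47 genes, and LrpprcP27A replicate 3 the lowest in 30. The summed level of the Nduf genes was 9303, 9313 and 11052 TPM with LrpprcWT and 8663, 8846 and 8364 TPM with LrpprcP27A. As a share of all TPM this was 0.989% ± 0.101 (SD, n = 3) and 0.862% ± 0.0243 (SD, n = 3). The groups of sums did not overlap, and LrpprcWT replicate 3 stood furthest from the others. The coefficient of variation between replicates had a median over the 47 genes of 12.0% with LrpprcWT and 4.24% with LrpprcP27A, and it was larger with LrpprcWT in 44 of them. Over all genes tested, the medians were 17.2% and 10.2%.

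Some properties of the libraries differed between the groups in their means and bear on every value below. Mitochondrially encoded genes took 40.7% ± 4.59 of the TPM with LrpprcWT and 45.2% ± 0.953 with LrpprcP27A (SD, n = 3). These shares overlapped, at 40.8%, 45.2% and 36.0% with LrpprcWT against 46.1%, 44.2% and 45.1% with LrpprcP27A. The ribosomal RNA gene *Rn18s-rs5* had 13561 ± 4404 and 40309 ± 3777 TPM (SD, n = 3). All other genes thus shared a smaller remainder with LrpprcP27A. Fast fibre markers summed to 122072 to 135232 TPM with LrpprcWT and 112230 to 127057 with LrpprcP27A. Marker lists of slow fibres (113 to 193 TPM against 34.1 to 44.7, 5 of 6 called lower), macrophages (227.5 to 425.6 against 76.4 to 141.8, 6 of 6) and fibroblasts (810.8 to 1350.2 against 212 to 464.2, 5 of 5) were lower with LrpprcP27A, whereas 1 of 4 endothelial, 0 of 3 Schwann cell, 0 of 4 red cell and 0 of 2 tested adipocyte markers were called lower by limma, 1 of 8 fast fibre markers was called lower and 1 higher, neither of 2 cardiac markers passed the filter, and no listed marker was at 0 in all libraries. The part of these differences in the values below was not tested, and in whole muscle fewer cells of a type and less RNA per cell cannot be told apart. Lrpprc, which the plasmids also encode, had 35.1, 37.0 and 75.2 TPM with LrpprcWT and 26.9, 29.7 and 26 TPM with LrpprcP27A (log2 fold change -0.72 ± 0.26 SE, limma adjusted p = 0.0652 unpaired and 0.00243 with the replicate block), and reads from the plasmid and from the mouse gene cannot be told apart in these values. Without LrpprcWT replicate 3 its log2 fold change was -0.38 (limma adjusted p = 0.114), and with median-of-ratios scaling and the block it was -0.31 (limma adjusted p = 0.295).

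The Nduf genes were lower with LrpprcP27A on the deposited scale, by less than the typical gene. Their log2 fold changes had a median of -0.20 and ran from -0.64 to 0.097, and 44 of the 47 were below 0. Over all 11611 genes tested, the median was -0.32 and 88% were below 0, so that 67.2% of all genes had a lower log2 fold change than the Nduf median. At an adjusted p under 0.05 (limma on log2(TPM + 1), unpaired), 6 of the 47 Nduf genes were lower (12.8%), where the share over all genes tested was 23.3%. None was higher (1.34% over all genes), also at an unadjusted p under 0.05 (2.59% over all genes), at which 12 were lower (25.5%, against 44.2% over all genes). With the replicate number as a block, 8 were lower (48.4% over all genes) and 0 higher (2.69% over all genes). In 27 of the 47 genes (57.4%) the LrpprcP27A values all lay below the LrpprcWT values, which was so in 47.6% of all genes, and in 0 all above (3.51% of all genes). The share without overlap was thus above that of all genes and the share called lower was below it, and neither difference was tested. The 95% interval of the log2 fold change held 0 in 35 of the 47 genes, with a median distance of 0.26 from the estimate to either end.

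The same direction was seen in each pair of same-numbered libraries, to unequal degrees. Within the pair of replicate 1, 38 of the 47 genes were lower with LrpprcP27A (median difference -0.098), within that of replicate 2, 37 were lower (-0.077), and within that of replicate 3, 46 were lower (-0.42). The medians over all genes in these pairs were -0.39, -0.16 and -0.40. In the first pair the Nduf genes thus lay well above the typical gene, and in the third they lay beside it. Lower values in all 3 pairs were found for 33 of the 47 genes. The shares of all genes lower in each pair and in all 3 pairs were not counted. Between the groups, 88% of all genes had a log2 fold change below 0, so these counts do not set the Nduf genes apart. Leaving out LrpprcWT replicate 3 moved the median of the Nduf genes from -0.20 to -0.12, with 40 of 47 below 0.

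The calls rested on the number of libraries and on the scale. Without LrpprcWT replicate 1 or 3, or without LrpprcP27A replicate 2 or 3, 0 Nduf genes were called lower, where 2.33%, 0.122%, 4.44% and 3.8% of all genes were. Without LrpprcP27A replicate 1 there were 2 (4.26%, against 14.6% of all genes), and without LrpprcWT replicate 2 there were 18 (38.3%, against 59.5% of all genes). Without the filter on low values, and after rescaling to nuclear protein-coding genes, quantile normalization or median-of-ratios scaling, 0 were called lower. Of all genes, 5.54%, 4.46% and 5.81% were called lower in these 3 scalings, and 0.196% without the filter. The rank test of Kruskal and Wallis could call no gene here. Its smallest p with 3 against 3 is 0.0495, which became 0.0969 after adjustment.

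Direction depended on how the libraries were scaled. Rescaled over nuclear protein-coding genes alone, the median of the Nduf genes was -0.011 (26 below and 21 above 0), while that of all genes was -0.17. None was called higher after this or after quantile normalization (1.92% and 4.25% of all genes). After quantile normalization the medians were 0.050 (15 below and 32 above 0) and 0.038. With median-of-ratios scaling, which centres the bulk of the genes, the Nduf median was 0.22 (4 below and 43 above 0) and that of all genes 0.036 (44.9% below and 55.1% above 0). In that last scaling *Ndufb5* alone was called higher in the unpaired fit (6.83% of all genes), and 10 genes were with the replicate block (21.3% of the Nduf genes, 17.2% of all genes). Among these were *Ndufa4*, *Ndufaf5*, *Ndufaf6*, *Ndufb4*, *Ndufb5*, *Ndufb9*, *Ndufc1*, *Ndufs4* and *Ndufs7*. Relative to the median of all genes, the Nduf genes were 0.12 higher on the deposited scale, 0.16 after nuclear scaling, 0.013 after quantile normalization and 0.18 with median-of-ratios scaling.

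**Figure D2:**
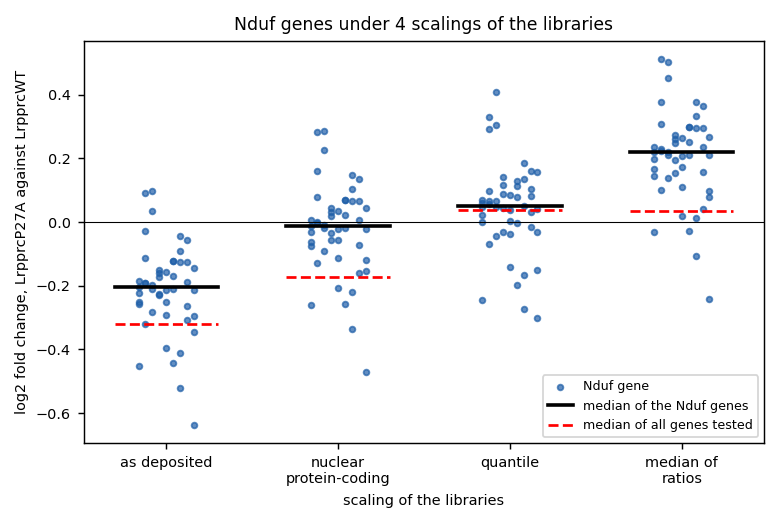
Log2 fold changes (LrpprcP27A against LrpprcWT) of the 47 Nduf genes, 1 point each, under 4 scalings of the libraries; black lines are medians of the Nduf genes and red dashed lines those of all 11611 genes tested. The Nduf median moves from -0.20 as deposited to 0.22 with median-of-ratios scaling and lies above that of all genes in each of the 4.

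The 7 nuclear core subunits, which carry electrons through the peripheral arm, were all below 0 on the deposited scale and none passed the test. Their log2 fold changes ran from -0.26 to -0.044 with a median of -0.21, and under median-of-ratios scaling all 7 were above 0 (median 0.21). At an unadjusted p under 0.05 limma gave 2, *Ndufs1* and *Ndufs8*, where 44.2% of all genes were lower. Summed, the 7 genes had 1918 ± 151 TPM with LrpprcWT and 1701 ± 55.2 TPM with LrpprcP27A (SD, n = 3).

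*Ndufv1*, which binds NADH and the flavin that takes its electrons, had 261.5, 246.6 and 299.9 TPM with LrpprcWT and 248.7, 227.5 and 219.5 TPM with LrpprcP27A. The groups overlapped by 1 library in each (-0.21 ± 0.11 SE, limma adjusted p = 0.153). Its partner *Ndufv2*, an iron-sulphur protein, had 326.2, 296.9 and 342.5 TPM against 280.4, 285.4 and 259.9 TPM. All *Ndufv2* values with LrpprcP27A were below those with LrpprcWT, and the difference missed the threshold (-0.22 ± 0.1 SE, limma adjusted p = 0.11). *Ndufs1*, the largest subunit and an iron-sulphur protein, had 130.2, 112.2 and 129.3 TPM against 102.5, 107.3 and 101.2 TPM, also without overlap (-0.25 ± 0.1 SE, limma adjusted p = 0.0906). *Ndufs1* overlaps *Eef1b2* on the opposite strand, which had a mean of 76.2 TPM and a log2 fold change of -0.55, and the library kit does not mark the strand. In all, 27 Nduf genes share exon bases with another gene of the table, and in 9 that gene reached 10% or more of their level, each on the opposite strand, so that reads of the shared bases cannot be told apart. The same holds for *mt-Nd6*, which lies opposite other mitochondrial transcripts.

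*Ndufs7*, an iron-sulphur protein beside the ubiquinone site, had 208.9, 213.6 and 259.4 TPM with LrpprcWT and 229.1, 225.4 and 204.6 TPM with LrpprcP27A. Its groups overlapped widely, with LrpprcP27A the higher in 2 of 3 pairs (-0.044 ± 0.12 SE, limma adjusted p = 0.764), and without LrpprcWT replicate 3 its log2 fold change was 0.055. The opposite-strand gene *Gamt* overlaps *Ndufs7* and had a mean of 34.1 TPM and a log2 fold change of -1.12. *Ndufs3* and *Ndufs8* belong to the same module, and *Ndufs8* also holds iron-sulphur clusters. *Ndufs3* had 205.6, 197.9 and 236.9 TPM against 185, 191.3 and 175 TPM, and *Ndufs8* had 178.1, 170 and 198.7 TPM against 156.2, 149.3 and 148.2 TPM. Neither showed overlap (-0.21 ± 0.11 and -0.26 ± 0.1 SE, limma adjusted p = 0.142 and 0.0758).

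The mitochondrial genes for the other core subunits gave values on the opposite side of 0. All 7 mt-Nd genes had log2 fold changes above 0, from 0.11 for *mt-Nd3* to 0.32 for *mt-Nd6* (median 0.25), although after quantile normalization *mt-Nd2* and *mt-Nd4* were below 0 and *mt-Nd1* was at 0, and without LrpprcWT replicate 3, *mt-Nd5* was below 0. The median was 0.0096 after quantile normalization, 0.68 with median-of-ratios scaling and 0.12 without LrpprcWT replicate 3. None was called by limma on the deposited scale, unpaired or with the replicate block, and 1, *mt-Nd4l*, had an unadjusted p under 0.05 in the unpaired fit. With median-of-ratios scaling and the block together, *mt-Nd1*, *mt-Nd4l* and *mt-Nd6* were called higher (limma adjusted p = 0.0416, 0.03 and 0.0313). *mt-Nd4l* had 16156, 17126 and 13535 TPM with LrpprcWT and 20010, 17977 and 18546 TPM with LrpprcP27A as deposited. Its groups did not overlap (0.28 ± 0.12 SE, limma adjusted p = 0.103 in the unpaired fit), and the other 6 overlapped between groups. The sum over the 7 was 118326 ± 17954 TPM with LrpprcWT and 135559 ± 3331 TPM with LrpprcP27A.

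The ratio of mitochondrial to nuclear core mRNAs is unaffected by a factor applied to a whole library, though not by quantile normalization, under which the median log2 fold changes were 0.0096 for the mitochondrial and 0.049 for the nuclear core genes. The ratio is given here as deposited. It was 63.2, 76.0 and 48.0 with LrpprcWT and 80.5, 76.1 and 82.7 with LrpprcP27A, with means of 62.4 ± 14 and 79.8 ± 3.35 (SD, n = 3). The groups met at replicate 2, and the LrpprcWT values spread far more than those of LrpprcP27A. This ratio was not tested.

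**Figure D3:**
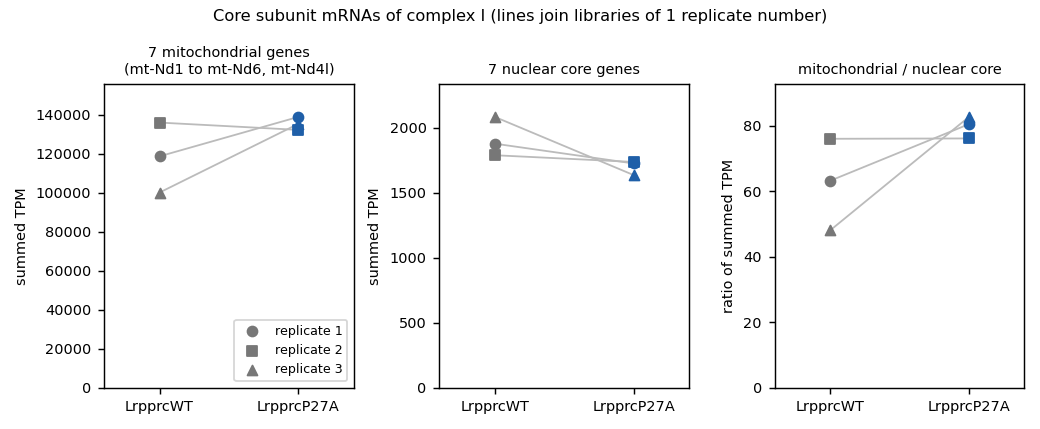
Summed TPM of the 7 mitochondrial core subunit genes, summed TPM of the 7 nuclear core subunit genes and their ratio in each library, with lines joining LrpprcWT and LrpprcP27A libraries of the same replicate number. The ratio lies between 48.0 and 76.0 with LrpprcWT and between 76.1 and 82.7 with LrpprcP27A.

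Accessory subunits stabilize the complex around the core. The 9 of the peripheral arm (*Ndufv3*, *Ndufs4*, *Ndufs6*, *Ndufa2*, *Ndufa5*, *Ndufa6*, *Ndufa7*, *Ndufa9* and *Ndufa12*) lay close together, with log2 fold changes between -0.21 and -0.12 (median -0.19) on the deposited scale and all above 0 under median-of-ratios scaling. None was called by limma on the deposited scale, where 23.3% of all genes were called lower unpaired and 48.4% with the block. None had an unadjusted p under 0.05 in the unpaired fit (44.2% of all genes were lower). Lower values without overlap were found in 4 of 9 (47.6% of all genes). With median-of-ratios scaling and the block, *Ndufs4* was called higher (0.26, limma adjusted p = 0.0348). Summed, the 9 genes had 1871 ± 211 TPM with LrpprcWT and 1649 ± 44.0 TPM with LrpprcP27A. *Ndufa6* and *Ndufs6* overlap *Smdt1* and *Mrpl36* on the opposite strand, at 36.5% and 12.8% of their levels.

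The 9 accessory subunits of the membrane arm next to its joint with the peripheral arm (*Ndufa1*, *Ndufa3*, *Ndufa8*, *Ndufa10*, *Ndufa11*, *Ndufa13*, *Ndufc1*, *Ndufc2* and *Ndufs5*) had log2 fold changes from -0.34 to -0.13 (median -0.21), all above 0 under median-of-ratios scaling. None was called in the unpaired fit (23.3% of all genes were lower), where 4 had an unadjusted limma p under 0.05 (44.2% of all genes were lower). *Ndufa10* and *Ndufc2* were called lower with the replicate block (48.4% of all genes). *Ndufa10*, a subunit related to nucleoside kinases, had 214.5, 189.3 and 232.6 TPM with LrpprcWT and 174.5, 165.2 and 168.1 TPM with LrpprcP27A (-0.32 ± 0.11 SE, limma adjusted p = 0.0559 unpaired and 0.0316 with the block). *Ndufc2* had 289.1, 240.3 and 333 TPM against 234.8, 224.1 and 214.3 TPM (-0.34 ± 0.13 SE, limma adjusted p = 0.0741 unpaired and 0.0296 with the block). In both genes the groups did not overlap, and LrpprcWT replicate 2 was the lowest of its group. Without LrpprcWT replicate 3 their log2 fold changes were -0.25 and -0.23.

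The 11 accessory subunits of the distal membrane arm held both ends of the subunits' range. Their median was -0.17 (0.25 under median-of-ratios scaling), and *Ndufb3*, *Ndufb10* and *Ndufb7* fell, the last 2 named here after their values were seen. These 3 of the 11 were called lower by limma unpaired and with the block, where 23.3% and 48.4% of all genes were. With median-of-ratios scaling and the block, 3 of the 11 were called higher (17.2% of all genes). *Ndufb3* (chr1:58625541-58636536), a small subunit anchored in the membrane, had 273.5, 236.4 and 318.9 TPM with LrpprcWT and 198.9, 201.4 and 200.5 TPM with LrpprcP27A. Its LrpprcP27A values were nearly equal and all lay below the LrpprcWT values (log2 fold change -0.45 ± 0.12 SE, limma adjusted p = 0.0339). *Ndufb10* (chr17:24941032-24943453) and *Ndufb7* (chr8:84293300-84298255) both lie on the intermembrane space side. *Ndufb10* had 391.3, 354.2 and 465 TPM against 306, 302.8 and 295.9 TPM, and *Ndufb7* had 53.9, 53.2 and 68.4 TPM against 44.7, 45.2 and 41.9 TPM. Neither overlapped between groups (-0.41 ± 0.12 and -0.40 ± 0.13 SE, limma adjusted p = 0.0388 and 0.0492). Under median-of-ratios scaling the 3 genes had log2 fold changes of -0.030, 0.012 and 0.020 and were not called.

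*Ndufb8* (chr19:44537011-44543939), the subunit whose protein the study used as a marker of assembled complex I, had 181.9, 182.8 and 216.9 TPM with LrpprcWT and 175.4, 178.9 and 161.8 TPM with LrpprcP27A. The groups did not overlap, but only LrpprcWT replicate 3 stood far from the others, and the difference did not pass the test (log2 fold change -0.17, 95% interval -0.41 to 0.079, limma adjusted p = 0.234). Under median-of-ratios scaling the value was 0.25. The study reported no significant change in complex I assembly by that protein marker, and similar complex I activity, between the plasmids.

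*Ndufb4* and *Ndufb5*, with *Ndufaf6*, were the 3 Nduf genes above 0 as deposited. *Ndufb4* (chr16:37467242-37474815) had 120, 146.2 and 157.5 TPM with LrpprcWT and 138.1, 161.6 and 150 TPM with LrpprcP27A, with overlap (0.092 ± 0.13 SE, limma adjusted p = 0.564), and without LrpprcWT replicate 1 its value was -0.020. *Ndufb5* (chr3:32791139-32805715) had 85.5, 84.9 and 95 TPM against 90.1, 90.6 and 90.8 TPM (0.034 ± 0.098 SE, limma adjusted p = 0.786). It overlaps *Mrpl47* on the opposite strand, at 10.3% of its level. Under median-of-ratios scaling *Ndufb5* was called higher (0.45, limma adjusted p = 0.0428), and *Ndufb4* was with the replicate block added (0.51, limma adjusted p = 0.0125).

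*Ndufab1* (chr7:121684626-121701393), the acyl carrier protein, is a subunit of complex I that also serves mitochondrial fatty acid synthesis. It had 62.5, 56.1 and 71.5 TPM with LrpprcWT and 47.5, 46.8 and 44.0 TPM with LrpprcP27A and fell without overlap of the groups (-0.44 ± 0.12 SE, limma adjusted p = 0.0333). Under median-of-ratios scaling its log2 fold change was -0.028.

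**Figure D4:**
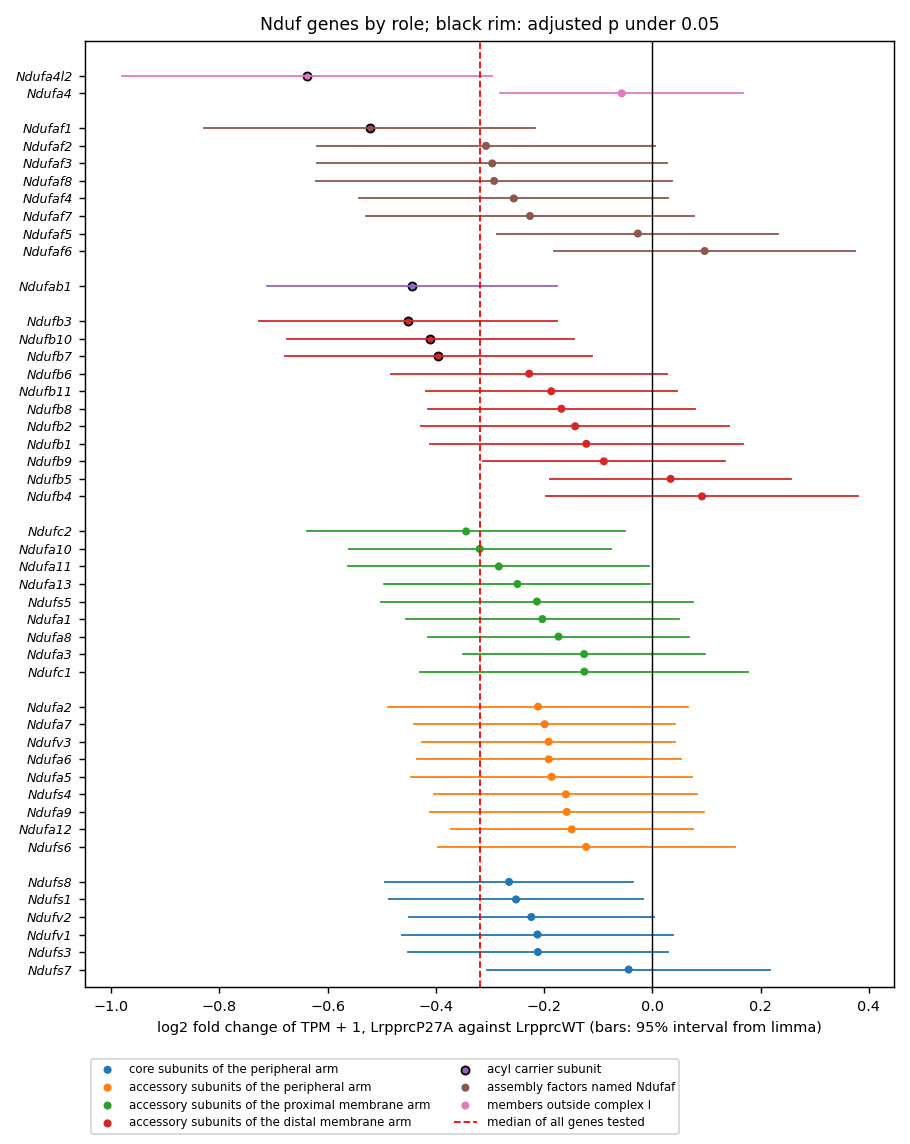
Log2 fold change of TPM + 1 (LrpprcP27A against LrpprcWT) of 46 Nduf genes with its 95% interval from limma, grouped and coloured by role; a black rim marks an adjusted p under 0.05 and the dashed line the median of all genes (-0.32). The 6 rimmed genes lie between -0.64 and -0.40 in 4 of the role groups, and the core and peripheral accessory subunits shown lie to the right of the dashed line.

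Assembly factors named Ndufaf had a median of -0.27 (0.13 under median-of-ratios scaling), with 1 of 8 called lower (23.3% of all genes). *Ndufaf1* (chr2:119482683-119493359), which with *Acad9* and *Ecsit* helps to build the membrane arm, had 71.3, 57.4 and 78.7 TPM with LrpprcWT and 51.0, 45.9 and 45.7 TPM with LrpprcP27A. It fell without overlap (log2 fold change -0.52 ± 0.13 SE, limma adjusted p = 0.0306), and its value under median-of-ratios scaling was -0.11.

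*Ndufaf3* and *Ndufaf4*, which act together early on the ubiquinone end, had 14.6, 12.4 and 17.3 TPM against 12.3, 11.4 and 11.5 TPM, and 21.3, 17.8 and 22.1 TPM against 17.0, 15.8 and 17.8 TPM. Both were without overlap, by a narrow margin (-0.30 ± 0.14 and -0.26 ± 0.13 SE, limma adjusted p = 0.130 and 0.136). The opposite-strand gene *Impdh2* overlaps *Ndufaf3* and had a mean of 23.4 TPM, above that of *Ndufaf3* itself, with a log2 fold change of -0.33.

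*Ndufaf5* hydroxylates an arginine of *Ndufs7*, *Ndufaf8* supports *Ndufaf5*, and *Ndufaf7* is an arginine methyltransferase. *Ndufaf5* had 22.2, 21.3 and 23.8 TPM with LrpprcWT and 21.2, 23.9 and 20.9 TPM with LrpprcP27A (-0.027 ± 0.11 SE, limma adjusted p = 0.853). *Ndufaf8* had 19.3, 17.4 and 24.2 TPM against 16.0, 17.7 and 15.1 TPM, and LrpprcWT replicate 2 lay within the LrpprcP27A values (-0.29 ± 0.14 SE, limma adjusted p = 0.139). *Ndufaf7* had 9.4, 8.32 and 10.6 TPM against 7.49, 7.92 and 8.3 TPM, where the groups nearly met (-0.23 ± 0.13 SE, limma adjusted p = 0.198). The opposite-strand genes *Tepsin* and *Prkd3* overlap *Ndufaf8* and *Ndufaf7* at 21.6% and 34.1% of their levels. *Ndufaf6* (chr4:11048820-11076236), needed for early steps, had the highest log2 fold change of the Nduf genes. Its TPM was 22.8, 24.4 and 26.2 with LrpprcWT and 23.4, 28.9 and 26.6 with LrpprcP27A, higher in 3 of 3 pairs but overlapping between groups (0.097 ± 0.12 SE, limma adjusted p = 0.527).

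Other assembly factors, listed by their known role and not by an Nduf symbol, were measured as well. Of 13 tested, 13 were below 0 as deposited (median -0.19), as were 88% of all genes. Under median-of-ratios scaling 11 of 13 were above 0 (55.1% of all genes). In the unpaired fit on the deposited scale, 3 of 13 were called lower, where 23.3% of all genes were. *Foxred1*, needed late in assembly, fell from 15.4, 9.92 and 14.8 TPM to 8.62, 7.67 and 7.2 TPM (-0.68 ± 0.18 SE, limma adjusted p = 0.0305). *Aifm1*, which supports import into the intermembrane space, and *Tmem70*, which serves the membrane arm and ATP synthase, fell by 0.42 and 0.38 on the log2 scale (limma adjusted p = 0.0452 and 0.0476). Under median-of-ratios scaling *Foxred1*, *Aifm1* and *Tmem70* had -0.30, -0.013 and 0.038, and none of these 3 was called under this, nuclear protein-coding or quantile scaling, or without LrpprcWT replicate 3 (limma). With the replicate block on the deposited scale, 5 of 13 were called lower (48.4% of all genes), with *Lyrm2* and *Dmac1* added (limma adjusted p = 0.0225 and 0.0249).

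*Ndufa4* and *Ndufa4l2* carry the family name but are not part of complex I. *Ndufa4*, a subunit of complex IV, had 442, 435.9 and 502.3 TPM with LrpprcWT and 438.3, 458.6 and 427.8 TPM with LrpprcP27A, with overlap (-0.057 ± 0.099 SE, limma adjusted p = 0.648). *Ndufa4l2* (chr10:127350818-127353038), its paralogue that is induced by hypoxia and is also known as a marker of pericytes, had 18.3, 16.1 and 21.0 TPM against 12.9, 9.68 and 11.9 TPM. It fell without overlap and had the lowest log2 fold change of the 47 genes (-0.64 ± 0.15 SE, limma adjusted p = 0.0259), and under median-of-ratios scaling the value was -0.24 (limma adjusted p = 0.151). Log2 of the ratio of *Ndufa4* to *Ndufa4l2* in each library as deposited, unaffected by a factor applied to a whole library, was 4.60, 4.76 and 4.58 with LrpprcWT and 5.08, 5.57 and 5.16 with LrpprcP27A. *Shmt2*, on the opposite strand, overlaps *Ndufa4l2*, had a mean of 19.0 TPM and fell as well (-0.47, limma adjusted p = 0.0444), so that reads of this overlap cannot be told apart. The share of other cell types in the *Ndufa4l2* difference was not tested, and the marker ranges of fibroblasts and macrophages given above are lower with LrpprcP27A too.

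To compare single genes with the rest of the family, each library was also divided by the geometric mean of the 47 Nduf genes, a scaling chosen after the values were seen. In the unpaired fit no gene was called (4.38% of all genes were called lower and 1.36% higher). With the replicate block, *Ndufa4l2* (-0.43 ± 0.1 SE, limma adjusted p = 0.0213) and *Ndufaf1* (-0.31 ± 0.088 SE, limma adjusted p = 0.0398) were lower (20.8% of all genes) and *Ndufb4* was higher (0.31 ± 0.084 SE, limma adjusted p = 0.0335; 4.31% of all genes). On this scale *Ndufb4* had 117, 145 and 129.9 units with LrpprcWT and 148.4, 171 and 165.5 with LrpprcP27A, and *Ndufaf1* had 69.6, 56.9 and 64.9 against 54.8, 48.5 and 50.4. Neither overlapped between groups on this scale. The same was so for others of the family, among them *Ndufa4* and *Ndufb5* (higher) and *Ndufb3* and *Ndufb10* (lower). The share of all genes without overlap on this scale was not counted. *Ndufb8* had 177.4, 181.3 and 178.9 against 188.4, 189.2 and 178.4, a spread of a few percent.

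**Figure D5:**
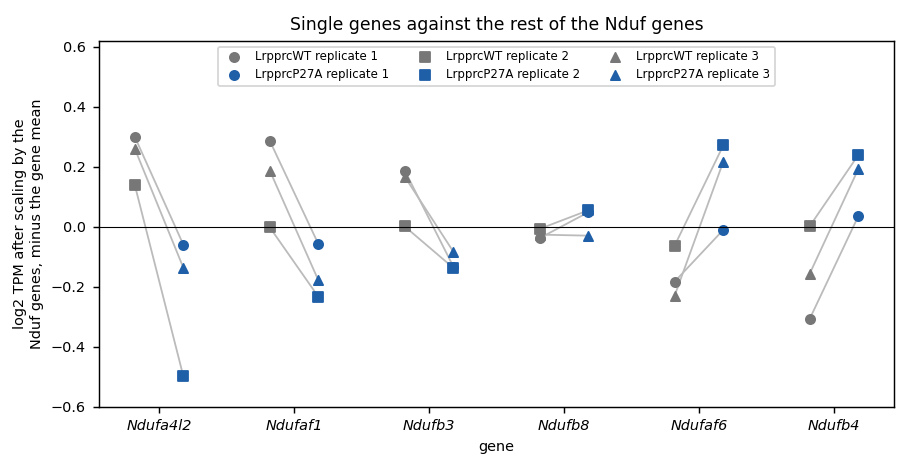
Log2 TPM of 6 genes after division by the geometric mean of the 47 Nduf genes, centred on each gene's mean over the 6 libraries, with lines joining libraries of the same replicate number. *Ndufa4l2* and *Ndufaf1* lie lower and *Ndufb4* higher with LrpprcP27A (blue) in all 3 pairs, and *Ndufb8* stays within a few hundredths of 0.

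The nuclear subunits of the other respiratory complexes, listed by role, are given for comparison with the 37 nuclear complex I subunits, of which 35 were below 0 with a median of -0.19 and 4 called lower. Complex II had a median of -0.27 (0 of 4 called), complex III -0.36 (4 of 9), complex IV -0.21 (2 of 13) and ATP synthase -0.25 (3 of 16). With the replicate block, 6 of the 37 complex I subunits were called lower. For complex II, III, IV and ATP synthase the block gave 2, 6, 4 and 6. Over all genes tested, 23.3% were called lower unpaired and 48.4% with the block. Every gene listed for complex II, III, IV and ATP synthase was below 0 as deposited, as were 88% of all genes. Under median-of-ratios scaling the medians were 0.22 for complex I, 0.16 for complex II, 0.066 for complex III, 0.21 for complex IV and 0.17 for ATP synthase. Genes that follow mitochondrial content had a median of -0.21 (0 of 16 called, and 4 with the replicate block), and the transcriptional and RNA regulators of mitochondrial genes, Lrpprc among them, -0.26 (0 of 11, and 5 with the block). These differences between lists were not tested.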

How the data were processed

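RNA of 6 TA muscles was sequenced from TruSeq RNA v2 libraries, a kit that does not mark the strand. CLC Genomics Workbench was used by the authors for alignment to GRCm39, and the deposited unit is TPM, over 41709 genes that sum to 1000000 per library. Counts were not used here, so the depth is unknown and no counting error can be given. From the deposited TPM, log2(TPM + 1) was taken where a gene averaged a TPM of 1 or more (11611 genes) and compared by limma 3.58.1 (R 4.3.3) with a mean-variance trend and Benjamini-Hochberg adjustment over all 11611. Adding 1 shrinks the fold change of low genes. Not overlapping means that every value of one group lies beyond every value of the other. The study's own test, of Kruskal and Wallis, was run as an alternative only. Its smallest p with 3 against 3 is 0.0495, so that after adjustment it could call no gene here.

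The main fit was unpaired. The study describes contralateral muscles but does not state which libraries share a mouse, so pairs were taken from matching replicate numbers. The numbers in the library titles match within the same pairs. Deviations of same-numbered libraries from the group means correlated by 0.36, 0.53 and 0.36 across genes. The replicate block was therefore run as an alternative and is given where it changes a call. Other alternatives were the pseudocount, the filter, the trend, 3 scalings, each library left out and, added after the data were seen, scaling by the Nduf genes.

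The genes and lists were chosen with earlier results of these data known. Values are given for *Ndufb8*, core subunits (1 gene is not reported here), the 4 lowest and 4 highest log2 fold changes, the extremes of level, the assembly factors, *Ndufa4* and *Ndufa4l2*. Positions come from GENCODE M39. The fit was also run on simulated data in which genes varied independently, without pairs and without a shift of whole libraries. That run cannot bear on the choice of scaling or on the pairing.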

Additional observations from a re-analysis of the deposited data

How the results depend on the processing

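Of the 6 called genes, all were called with a pseudocount of 0.1 and with the replicate block, 5 with a minimum mean TPM of 5 and 4 without the trend, and the block changed no call other than those of *Ndufa10* and *Ndufc2* among the Nduf genes. Under no filter, nuclear protein-coding scaling, quantile normalization, median-of-ratios scaling with or without the block, and scaling by the Nduf genes, 0 were called lower. With the last under the block, 2 were. The Kruskal-Wallis test could call no gene after adjustment. Adjusted p of the 6 ran from 0.0677 to 0.0848 without the filter and was 0.0969 by the Kruskal-Wallis test, which at an unadjusted p under 0.05 gives the 27 genes (57.4%, against 47.6% of all genes) whose groups do not overlap. Counts called higher were 1 with median-of-ratios scaling, 10 with the replicate block added, 1 with the block and scaling by the Nduf genes, and 0 in the other settings. Leaving out 1 library in turn gave between 0 and 18 called lower and medians between -0.25 and -0.12. The median was -0.011 with nuclear protein-coding scaling, 0.050 with quantile normalization, 0.22 with median-of-ratios scaling and 0.013 with scaling by the Nduf genes, and these shifts follow from the rescaling itself. TPM keeps no depth, so low genes such as *Ndufaf2* cannot be given a counting error.

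Of 24 Nduf genes followed one by one, those below are the ones whose sign turned, the counts over all 47 being given with the scalings above. Under median-of-ratios scaling, with or without the replicate block, 17 of the 24 turned positive: *Ndufa4* 0.37, *Ndufaf2* 0.041, *Ndufaf3* 0.098, *Ndufaf4* 0.15, *Ndufaf5* 0.38, *Ndufaf7* 0.15, *Ndufaf8* 0.11, *Ndufb10* 0.012, *Ndufb7* 0.020, *Ndufb8* 0.25, *Ndufb9* 0.33, *Ndufs1* 0.17, *Ndufs3* 0.21, *Ndufs7* 0.38, *Ndufs8* 0.16, *Ndufv1* 0.21 and *Ndufv2* 0.20. Quantile normalization turned 12 of the 24 positive: *Ndufa4* 0.16, *Ndufaf2* 0.082, *Ndufaf3* 0.041, *Ndufaf4* 0.071, *Ndufaf5* 0.29, *Ndufaf7* 0.14, *Ndufaf8* 0.038, *Ndufb8* 0.078, *Ndufb9* 0.050, *Ndufs3* 0.049, *Ndufs7* 0.19 and *Ndufv2* 0.061. Nuclear protein-coding scaling turned 5 of the 24: *Ndufa4* 0.14, *Ndufaf5* 0.16, *Ndufb8* 0.024, *Ndufb9* 0.10 and *Ndufs7* 0.15. Scaling by the Nduf genes, with or without the replicate block, turned 7 of the 24: *Ndufa4* 0.16, *Ndufaf5* 0.18, *Ndufb8* 0.048, *Ndufb9* 0.13, *Ndufs3* 0.0045, *Ndufs7* 0.17 and *Ndufv1* 0.0041. With single libraries left out, *Ndufa4* ran from -0.094 to 0.0081, *Ndufaf5* from -0.086 to 0.014, *Ndufs7* from -0.10 to 0.055 and *Ndufb4* from -0.020 to 0.17.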
